A study of Mus musculus with 12 samples.

Results

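The genes described here belong to the MHC class II presentation pathway: the class II chains H2-Ea, H2-Eb1, H2-Aa and H2-Ab1, the peptide exchange factors H2-DMa and H2-DMb1, their inhibitors H2-Oa and H2-Ob, the invariant chain Cd74 and the transactivator Ciita. They were taken as the probe sets whose only gene symbol is one of these 10 names, with the brightest probe set kept per gene. By that rule 9 of the 10 were measured, each by 1 probe set, among 22154 genes with a probe set of their own. The remaining gene, Cd74, is not analysed here, because its probe set carries a second symbol. H2-Ea was picked for its pattern over the arrays, so its values are a description and carry no test.

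The RNA on the 12 arrays, an Affymetrix design for mouse genes, came from mTECs, the epithelial cells of the thymic medulla that display peripheral tissue antigens to developing T cells. Per the labels, the thymi came from C57BL/6 mice of 4 weeks, and live cells negative for CD45 and positive for Epcam and UEA, with low Ly51, were sorted by their MHC class II into a high fraction (mTEChi) and a low fraction (mTEClo). The genotypes were Aire+/+ and Aire-/- in a line lacking Aire, a transcriptional regulator of peripheral antigens, and Brg1+/+ and Brg1-/- in a line lacking Brg1, the ATPase of a SWI/SNF chromatin remodelling complex. In mTEChi each of the 4 genotypes had 2 arrays, numbered 1 and 2; in mTEClo each had 1. The alleles, any Cre driver and any pooling of animals are not given in the sources used here. Nothing in the labels ties replicates to separate animals, so a p-value covers only the spread between these arrays, which may be technical.

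A class II molecule is a dimer of an alpha and a beta chain: H2-Aa with H2-Ab1, and H2-Ea with H2-Eb1. The dimer is loaded with peptide in endosomes, where H2-DM exchanges peptides and H2-DO, made from H2-Oa and H2-Ob, restrains H2-DM. Ciita is the coactivator that switches the class II genes on by joining factors bound to the X and Y boxes of their promoters. C57BL/6 mice carry the H-2b haplotype, in which H2-Ea is known to be inactivated by a promoter deletion, so their class II dimers are H2-Aa with H2-Ab1.

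The promoters of 5 members are shown because letters of the X or Y boxes were found in them close to the start site. RefSeq (GRCm38.p6) gave promoter windows for 6 of the 9 measured members. The last 120 bases before the annotated start site are printed 5′ to 3′ on the gene's strand. Capitals mark matches, on either strand, to the Y box CTGATTGG, its core ATTGG, the X1 box or the X2 box TGACG.
H2-Aa, chr17:34287824-34287943, minus strand: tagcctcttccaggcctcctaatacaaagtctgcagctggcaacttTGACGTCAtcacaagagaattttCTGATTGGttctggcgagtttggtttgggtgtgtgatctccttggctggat
H2-Eb1, chr17:34305747-34305866, plus strand: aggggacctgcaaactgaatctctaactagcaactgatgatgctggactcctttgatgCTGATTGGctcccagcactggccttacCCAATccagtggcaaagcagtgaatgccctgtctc
H2-Oa, chr17:34092259-34092378, plus strand: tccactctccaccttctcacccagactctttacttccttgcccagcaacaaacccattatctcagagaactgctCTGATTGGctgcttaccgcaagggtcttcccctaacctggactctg
H2-Ob, chr17:34238785-34238904, plus strand: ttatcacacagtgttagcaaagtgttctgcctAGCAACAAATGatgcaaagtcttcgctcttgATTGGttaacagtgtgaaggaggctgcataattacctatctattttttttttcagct
H2-DMb1, chr17:34153071-34153190, plus strand: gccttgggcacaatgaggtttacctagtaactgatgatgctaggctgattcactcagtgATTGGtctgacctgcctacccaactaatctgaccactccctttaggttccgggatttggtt

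The full Y box lay in the windows of H2-Aa, H2-Eb1 and H2-Oa, at -51, -62 and -46 from the start site. In the 250 bases before 32851 annotated starts, 3.83% of windows held it on either strand. Its core, which the full box contains, was also found in H2-Ob at -57, in H2-DMb1 at -61 and in 1 of the H2-DMa windows at -198, against 33.8% of all windows. The X1 letters were found in full in H2-Ob only, against 1.2% of windows; near matches were not counted. The X2 letters were found in H2-Aa, as overlapping matches on both strands, against 17.8% of windows. A match describes the letters only.

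Signs of the state of the samples were read first. The median log2 intensity of an array was lower on the 4 arrays numbered 2 (5.07 to 5.12) than on the other 8 (5.25 to 5.32). The thymic epithelium markers summed to linear intensities of 6769 to 10042 in mTEChi and 9637 to 10148 in mTEClo. In mTEChi, Aire read 8.04 and 8.80 on Aire+/+ arrays and 9.01 and 9.73 on those labelled Aire-/-, which were the brighter. Smarca4, which encodes Brg1, read 6.13 and 6.89 on Brg1+/+ arrays and 5.88 and 5.44 on those labelled Brg1-/-. The deleted parts of both genes are unknown here, so these readings check no label, and directions below rest on the labels. In bulk samples, fewer cells of a type and less RNA per cell cannot be told apart.

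H2-Ea, the alpha chain of the H2-E dimer, was either bright or dim. In mTEChi its log2 intensity was 4.62 and 4.55 with Aire+/+ and 5.89 and 5.09 with Aire-/-. In the Brg1 line it was 4.33 and 11.42 with Brg1+/+ and 11.32 and 11.60 with Brg1-/-. In mTEClo it was 3.98 in Aire+/+, 4.20 in Aire-/-, 4.35 in Brg1+/+ and 10.11 in Brg1-/-. The 4 bright arrays (10.11 to 11.60) were thus all 3 labelled Brg1-/- and 1 of the 3 labelled Brg1+/+, and 0 of the 6 arrays of the Aire line were bright. Between the dimmest bright array and the brightest dim one lay a gap of 4.22, an 18.6-fold difference in intensity. The Brg1+/+ and Brg1-/- mTEChi arrays overlap, because Brg1+/+ mTEChi 2 (11.42) was brighter than Brg1-/- mTEChi 1 (11.32). Over all 12 arrays H2-Ea spanned 7.62, and 9 genes, itself included, spanned at least as much.

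RefSeq lists H2-Ea in its C57BL/6J assembly as a transcribed pseudogene. The bright and dim readings occurred within the same sorted fraction and within 1 genotype label. The labels give C57BL/6 for all 12 arrays and name no MHC haplotype. The haplotype carried by the Brg1 line could not be checked, and its part in the H2-Ea readings was not tested. No other member followed H2-Ea: the closest, H2-Eb1, its partner beta chain, had a Pearson r of 0.319 with it over the 12 arrays and ranked 2488 of 17230 named genes. The neighbouring genes in the RefSeq order are H2-Eb2 and Btnl2. In mTEChi H2-Eb2 read 9.27 and 9.97 with Brg1+/+ and 8.58 and 9.11 with Brg1-/-, so the genotype with 2 bright H2-Ea arrays had the lower H2-Eb2. Within Brg1+/+, H2-Eb2 was the higher on array 2, where H2-Ea was bright, as it was on array 2 of the other 3 mTEChi groups. Btnl2 read 5.76 and 6.35 against 5.95 and 5.98.

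The genes with the most similar pattern were Phf11b (r = 0.809), Orm3 (0.785), Trib1 (0.778) and Cdkn1a (0.777), all over 12 arrays that share the same labels and array numbers. Phf11b read 8.31, 8.37 and 8.14 on the 3 mTEChi arrays with bright H2-Ea and 6.18 to 7.50 on the other 5 mTEChi arrays. Orm3, an acute phase protein gene, read 5.72 to 6.06 on those 3 and 5.21 to 5.54 on the other 5. On Brg1-/- mTEClo, also bright for H2-Ea, Phf11b read 7.39 and Orm3 5.36, against 6.72 to 7.01 and 4.69 to 4.86 on the other mTEClo arrays. Both readings lay within the range of the 5 mTEChi arrays with dim H2-Ea. Cdkn1a, the cell cycle inhibitor p21, read 10.69 on Brg1+/+ mTEChi 2, below 10.81 on Aire+/+ mTEChi 2. Each of these 4 genes covered a far narrower range than H2-Ea.

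**Figure D1:**
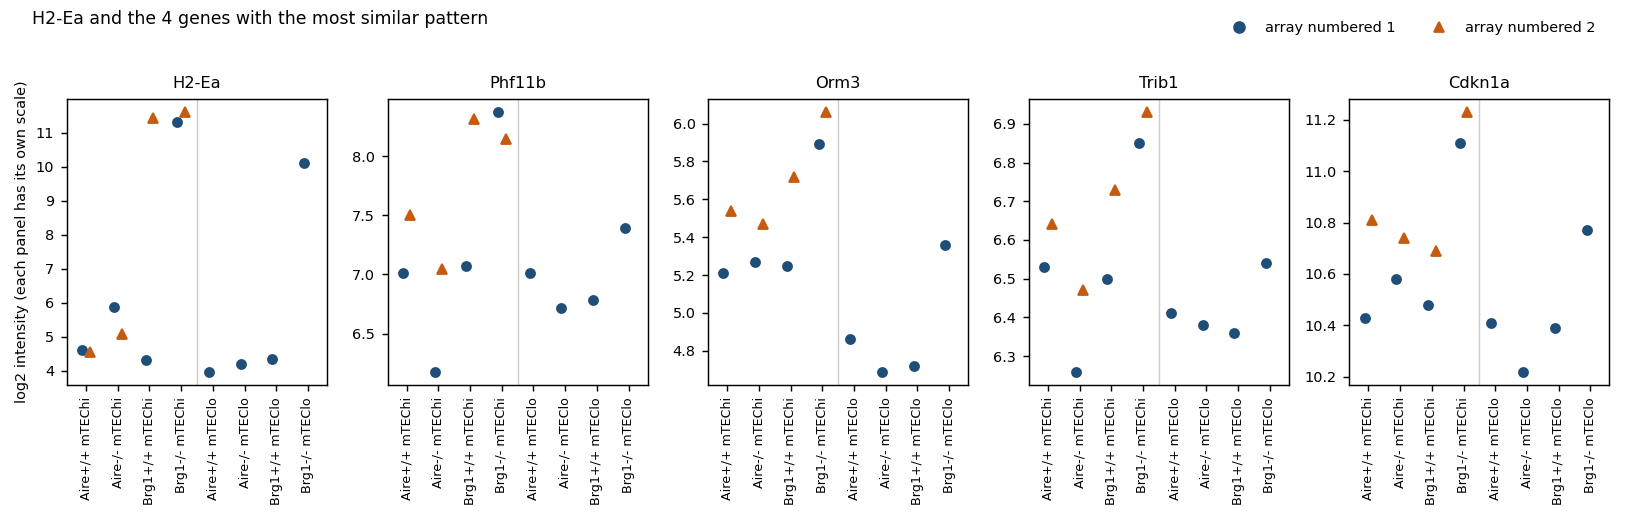
Log2 intensity (vertical axis, a separate scale per panel) of H2-Ea and of the 4 genes with the highest Pearson r with it, in the 8 groups along the horizontal axis; each point is 1 array, circles numbered 1 and triangles numbered 2. H2-Ea sits at 10.11 to 11.60 on 4 arrays and at 3.98 to 5.89 on the other 8.

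The other class II chains were bright on every array. In mTEChi H2-Ab1, the beta chain of the H2-A dimer, read 12.90 and 13.08 with Aire+/+, 12.98 and 13.20 in Aire-/-, 12.89 and 13.21 in Brg1+/+, and 13.02 and 13.00 in Brg1-/-. In mTEClo it read 12.76, 12.54, 12.59 and 12.45 in Aire+/+, Aire-/-, Brg1+/+ and Brg1-/-, so all 8 mTEChi arrays lay above all 4 mTEClo arrays. In mTEChi H2-Aa, its alpha chain, read 11.07 and 11.93 with Aire+/+, 11.33 and 12.15 in Aire-/-, 11.18 and 12.11 in Brg1+/+, and 11.32 and 11.77 in Brg1-/-. The array numbered 2 was the brighter in all 4 groups. In mTEClo H2-Aa read 10.83, 10.48, 10.31 and 10.32 in the same order of genotypes, again below every mTEChi array. H2-Eb1 read 11.72 and 12.28, 12.06 and 12.53, 11.61 and 12.21, and 11.84 and 12.29 in the 4 mTEChi groups, and 11.05, 11.03, 10.92 and 11.12 in mTEClo. It was bright in the Aire line, where H2-Ea was dim, and the arrays numbered 2 were again the higher.

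The peptide exchange genes differed from each other in how much they varied. H2-DMa, the alpha chain of H2-DM, spanned 10.10 to 10.40 over the 8 mTEChi arrays and 9.89 to 10.02 over mTEClo. H2-DMb1 lay below the median gene on 12 of 12 arrays (3.68 to 5.33), so its changes lie in the dim range. Its near copy H2-DMb2 read 9.44 to 11.91 in mTEChi and 8.85 to 9.23 in mTEClo. H2-DMb1 and H2-DMb2, like H2-Eb1 and H2-Eb2, are near copies, and the probes of one may bind the other; probe sequences were not analysed here.

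Of the H2-DO inhibitor, H2-Oa in mTEChi read 9.45 and 10.44 with Aire+/+, 9.70 and 10.75 in Aire-/-, 9.47 and 10.35 in Brg1+/+, and 9.62 and 10.02 in Brg1-/-. In mTEClo it read 8.37, 8.30, 7.76 and 7.80, more than a whole log2 unit below the lowest mTEChi array. A second H2-Oa probe set, shared with BC051537, was left out by the rule. In mTEChi it read 6.57 and 6.49 with Aire+/+, 7.48 and 7.14 in Aire-/-, 6.79 and 6.42 in Brg1+/+, and 6.43 and 6.77 in Brg1-/-. In mTEClo the shared probe set read 5.87, 6.19, 5.80 and 5.58, again below every mTEChi array. Unlike the probe set used, its array numbered 2 was the brighter in Brg1-/- only. H2-Ob in mTEChi read 6.77 and 6.69 with Aire+/+, 7.24 and 7.28 in Aire-/-, 6.26 and 6.75 in Brg1+/+, and 6.71 and 6.02 in Brg1-/-. Its mTEClo arrays read 5.73, 6.14, 5.78 and 5.60, and the ranges of the fractions overlapped, since Brg1-/- mTEChi 2 lay below Aire-/- mTEClo.

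Ciita, the transactivator of the pathway, spanned 6.43 to 6.94 in mTEChi and 6.32 to 6.69 in mTEClo. On single mTEChi arrays it read 6.64 and 6.50 with Aire+/+, 6.87 and 6.92 in Aire-/-, 6.62 and 6.94 in Brg1+/+, and 6.43 and 6.56 in Brg1-/-. In mTEClo it read 6.40, 6.69, 6.32 and 6.51. The genes most like Ciita over the 8 mTEChi arrays were Sumo2 (r = 0.973), Pcsk6 (0.967), Fam118a (0.964) and Agap3 (0.964). Among the members the closest was H2-Ob (0.602, rank 1187).

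**Figure D2:**
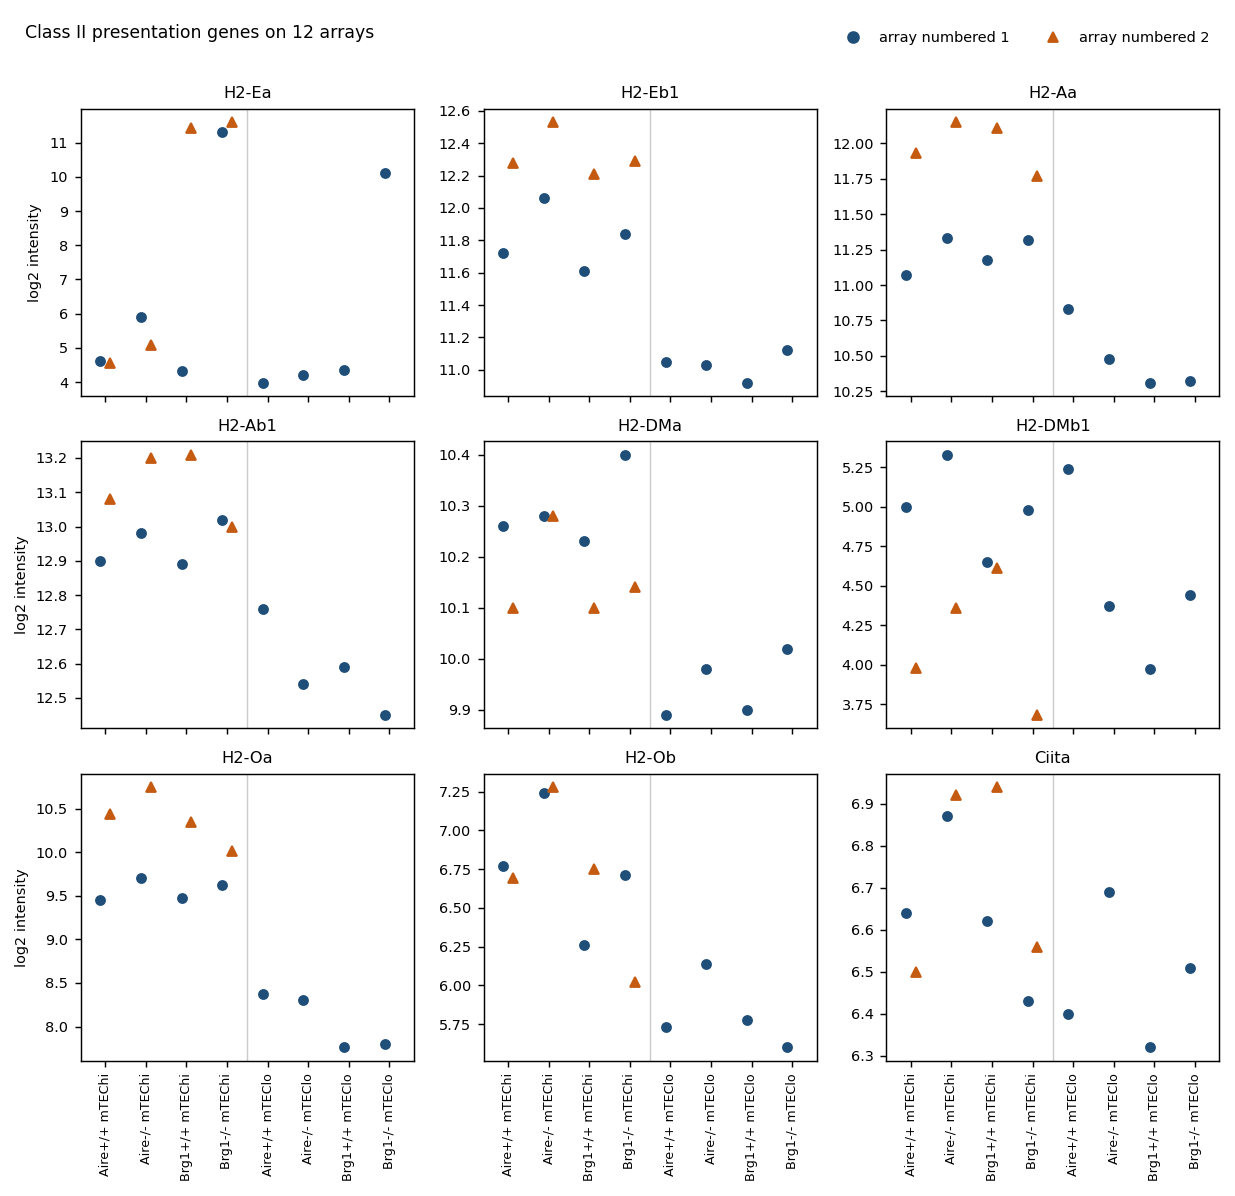
Log2 intensity (vertical axis, a separate scale per panel) of the 9 measured class II genes in the 8 groups along the horizontal axis; each point is 1 array, circles numbered 1 and triangles numbered 2. H2-Oa lies at 9.45 to 10.75 in mTEChi and 7.76 to 8.37 in mTEClo, whereas H2-Ea is bright on 4 arrays only.

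The comparison of Aire-/- with Aire+/+ mTEChi asked whether class II pathway RNA differed with Aire loss among cells sorted as high in MHC class II. Both genotypes were sorted on MHC class II protein, so the comparison cannot show whether the pathway as a whole depends on Aire. The same limit of the gate holds for each knockout comparison below. Of the 8 members tested, 0 passed limma at a Benjamini-Hochberg adjusted p under 0.05, where 0.794% of all genes did. H2-Ob differed by 0.53 on the log2 scale (SE 0.309), H2-DMb1 by 0.35 (SE 0.542), Ciita by 0.32 (SE 0.238) and H2-Eb1 by 0.29 (SE 0.347). H2-Oa differed by 0.28 (SE 0.499), H2-Aa by 0.24 (SE 0.462), H2-Ab1 by 0.10 (SE 0.244) and H2-DMa by 0.10 (SE 0.233), and each adjusted p was 1. All 8 differences lay above 0, as did 58.6% of all genes, and their median of 0.29 stood beside 0.06 for all genes. The 8 also lay above 0 within the arrays numbered 1 (0.02 to 0.47) and within those numbered 2 (0.12 to 0.59). The share of all genes that did so within each number was not taken. Without Aire-/- mTEChi replicate 2 only 5 of the 8 lay above 0, with a median of 0.08; without Aire+/+ mTEChi replicate 1 it was 6 of 8, with a median of 0.10. Each such fit compares unequal sets of array numbers.

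Both Aire-/- arrays lay above both Aire+/+ arrays for 3 of the 8 tested members, H2-DMa, H2-Ob and Ciita, where 15.9% of all genes did so. The summed linear intensities of 5 of 9 marker lists were also higher on both Aire-/- arrays, and 0 lower on both. For all blood cells the sum was 3205 and 4015 in Aire-/- against 2299 and 2682 in Aire+/+ mTEChi; without Cd52 and Fcer1g, the brightest of that list, it was 511 and 582 against 469 and 618, which overlap. Tyrobp of the same list read 6.64 and 6.73 in Aire-/- against 7.57 and 7.33. The dendritic cell markers summed to 2222 and 1523 against 1101 and 813. Without Batf3, their brightest gene, they summed to 389 and 280 against 336 and 301, which overlap too. The mTEC maturation markers summed to 2486 and 3309 against 1766 and 2337, or 1582 and 2108 against 1268 and 1470 without Cd80. The fibroblast and endothelium markers summed to 1689 and 1736 against 1107 and 1031, or 488 and 526 against 388 and 434 without Dcn. The cortical thymic epithelium markers summed to 802 and 641 against 587 and 540. Without Ccl25, the brightest gene of the cortical list, they summed to 261 and 269 against 235 and 278, which overlap. The part of these lists in the class II values was not tested.

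The same question in the Brg1 line gave 0 of 8 members past the test, where 0 of 22154 genes passed at an adjusted p under 0.05 and 301 genes, 1.36%, had an unadjusted p under 0.05; no member was among those 301. Ciita differed by -0.29 (SE 0.238), H2-DMb1 by -0.30 (SE 0.542), H2-Ob by -0.14 (SE 0.309) and H2-Eb1 by 0.16 (SE 0.347). H2-Aa, H2-Ab1, H2-Oa and H2-DMa lay between -0.10 and 0.10. The median over the 8 was -0.09, against 0.00 for all genes. It was 0.11, with 6 of 8 above 0, without Brg1+/+ mTEChi replicate 2, the array on which H2-Ea was bright, and -0.34 without replicate 1. Within the arrays numbered 1, 7 of 8 members lay above 0 (median 0.16), and within those numbered 2, 2 of 8 did (median -0.34). The share of all genes above 0 within each number was not taken, so these counts are not shown to be particular to the members. Of the tested members, Ciita alone had both Brg1-/- arrays below both Brg1+/+ arrays, where 9.62% of all genes did.

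The difference between the Brg1 effect and the Aire effect in mTEChi was tested directly. It was -0.61 for Ciita (SE 0.336), -0.67 for H2-Ob (SE 0.437) and -0.66 for H2-DMb1 (SE 0.766), each with a limma adjusted p of 1. With 0 of 8 members called, against 0.135% of all genes, the effects were not shown to differ. The median over the members was -0.35, against -0.05 for all genes.

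In mTEClo each knockout had 1 array against 1, and the spread was borrowed from mTEChi. Aire loss gave differences from -0.87 (H2-DMb1) to 0.41 (H2-Ob), with a median of -0.04. Brg1 loss gave -0.18 (H2-Ob) to 0.47 (H2-DMb1), with a median of 0.08. In each, 0 of 8 members and 0 of all genes passed limma's test, while 298 and 382 genes had an unadjusted p under 0.05. The knockout effects were also compared between the fractions, and 0 of 8 members passed for Aire (median 0.32) or for Brg1 (median -0.08), and 0 of all genes passed limma either, with 547 and 296 at an unadjusted p under 0.05.

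**Figure D3:**
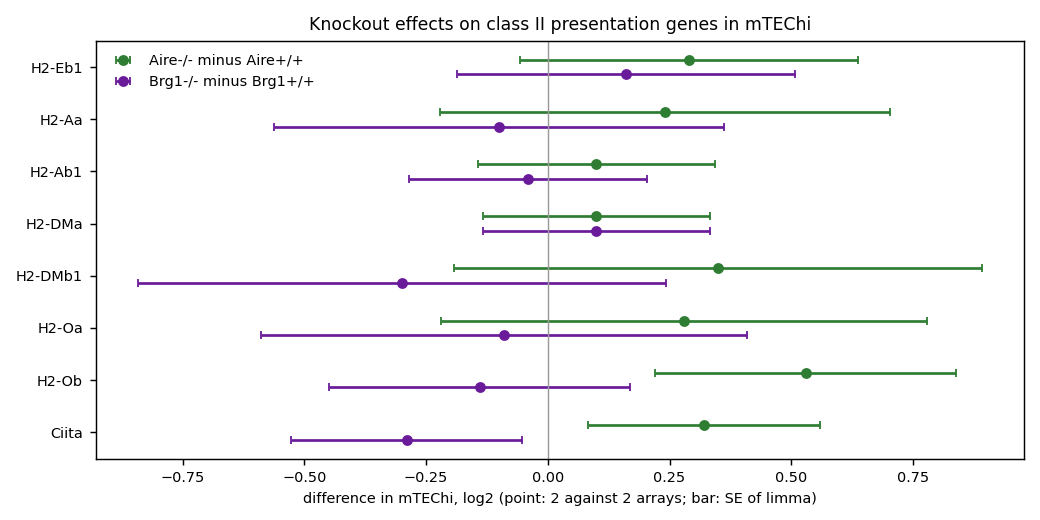
Log2 difference of each knockout from its wild type in mTEChi (horizontal axis) for the 8 class II genes tested; points are means of 2 against 2 arrays and bars the SE of limma. Ciita lies at 0.32 for Aire loss and -0.29 for Brg1 loss, and neither passed the test.

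The fractions were sorted on MHC class II protein, so the class II chains describe the gate between mTEChi and mTEClo, and their differences are no finding. Averaged over both wild types, H2-Oa was higher in mTEChi by 1.86 (SE 0.432, adjusted p = 0.0859 by limma). H2-Aa was higher by 1.00 (SE 0.4), H2-Eb1 by 0.97 (SE 0.301), H2-Ob by 0.86 (SE 0.268) and H2-Ab1 by 0.34. Ciita differed by 0.31 and H2-DMa by 0.28, while H2-DMb1 differed by -0.04, and by more than 0 when array medians were set equal or arrays were quantile-normalized. In this comparison 0 of 8 members passed, where 2.56% of all genes did, and the median was 0.60 against -0.10 for all genes. All 8 mTEChi arrays lay above all 4 mTEClo arrays for H2-Eb1, H2-Aa, H2-Ab1, H2-DMa and H2-Oa, which is 5 of the 8 tested, where 3.63% of all genes did so. This count and the median of 0.60 include the class II chains H2-Eb1, H2-Aa and H2-Ab1, which describe the gate. H2-Oa differed by 1.92 in Aire-/- and 2.02 in Brg1-/-, with adjusted p of 0.429 and 0.415 by limma and 0 of 8 members called in either, against 0.469% and 0.582% of all genes. With the replicate number as a block, H2-Oa passed in wild types (1.45, adjusted p = 0.00625 by limma) and in Brg1-/- (1.70, adjusted p = 0.0253 by limma).

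All 4 mTEClo arrays are numbered 1, so mTEChi arrays numbered 1 were also compared with them, with the genotype as a block, a fit added after the data were seen. H2-Oa was higher in mTEChi by 1.50, a 2.83-fold difference in intensity (SE 0.156, adjusted p = 0.00305 by limma). The difference was 1.08 in Aire+/+, 1.40 in Aire-/-, 1.71 in Brg1+/+ and 1.82 in Brg1-/-. H2-Ob was higher by 0.93 (SE 0.149, adjusted p = 0.0134 by limma), with 1.04, 1.10, 0.48 and 1.11 in the same order. H2-Eb1 was higher by 0.78 (adjusted p = 0.0132 by limma) and H2-Aa by 0.74 (adjusted p = 0.0345 by limma). These were 4 of 8 members, where 4.92% of all genes rose, and the median of the 8 was 0.61 against -0.04 for all genes. The count and the median include the class II chains, H2-Eb1 and H2-Aa among those called, which describe the gate. H2-Ab1 (0.36), H2-DMa (0.34), H2-DMb1 (0.48) and Ciita (0.16) did not pass. The promoters of the 4 that passed are printed above, as is that of H2-DMb1, which did not pass. H2-Ab1 and Ciita, which did not pass either, had no promoter window. A link between promoter letters and the difference of the fractions was not tested. Without the Brg1-/- pair only H2-Oa passed, without the Aire+/+ pair H2-Oa and H2-Aa passed, and without either of the other pairs H2-Aa did not.

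Markers of other cells moved between the fractions too. The sum over all blood cell markers was 2299 to 4015 in mTEChi and 876 to 1111 in mTEClo, or 469 to 711 and 357 to 530 without Cd52 and Fcer1g, and over 12 macrophage and monocyte markers 1279 to 2190 against 930 to 1034. In the fit of arrays numbered 1, Cd52 and Fcer1g, both used as blood cell markers, rose by 1.66 and 2.45. Ptprc, which encodes the CD45 gated against in the sort, read 4.79 to 5.84 in mTEChi and 5.26 to 6.11 in mTEClo. The dendritic cell markers summed to 633 to 2222 in mTEChi and 372 to 627 in mTEClo. Without Batf3, their brightest gene, the sums were 276 to 389 and 241 to 296, which overlap. Batf3 itself read 8.48 to 10.84 in mTEChi and 6.49 to 8.37 in mTEClo. The integrin Itgax of that list lay below the median gene on 12 of 12 arrays. The B cell markers summed to 513 to 800 in mTEChi and 418 to 498 in mTEClo, with Cd79a below the median gene on 12 of 12 arrays. Without Cd79b, their brightest gene, the B cell sums were 200 to 319 in mTEChi and 203 to 240 in mTEClo, which overlap. Thymocyte markers summed to 554 to 2438 against 407 to 487, highest on Brg1-/- mTEChi 2. The part of such cells in the class II values was not tested. The mTEC maturation markers summed to 1766 to 3309 in mTEChi and 671 to 783 in mTEClo.

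**Figure D4:**
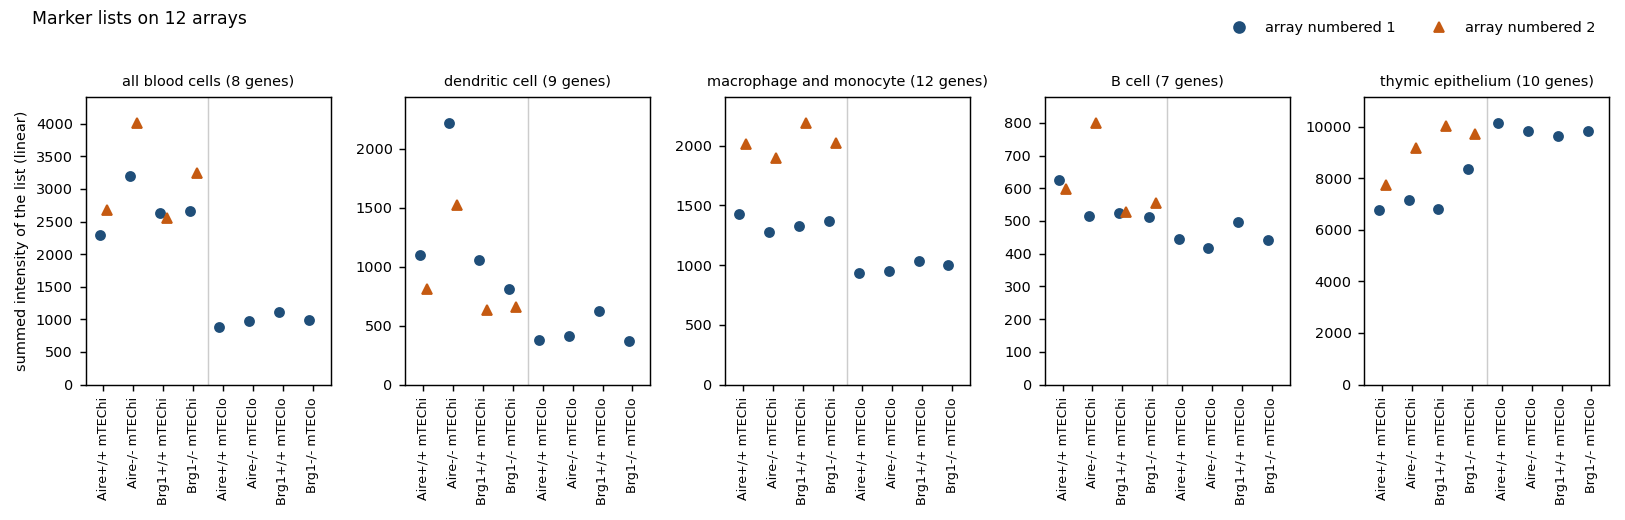
Summed linear intensity (vertical axis from 0, a separate scale per panel) of the markers of each cell type in the 8 groups; each point is 1 array, circles numbered 1 and triangles numbered 2. The blood cell sum is 2299 to 4015 in mTEChi and 876 to 1111 in mTEClo.

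The array number also moved some members. Between arrays numbered 2 and 1 of mTEChi, in a fit also added after the data were seen, H2-Oa was higher by 0.83 (SE 0.152, adjusted p = 0.00603 by limma). H2-Aa was higher by 0.76 (SE 0.138, adjusted p = 0.00583 by limma) and H2-Eb1 by 0.52 (SE 0.124, adjusted p = 0.016 by limma), each in 4 of 4 groups, where 18.3% of all genes were higher in all of them. H2-DMb1 was lower by the limma fit, at -0.83 (SE 0.207, adjusted p = 0.0186). H2-Ab1 (0.17), H2-DMa (-0.14), H2-Ob (-0.06) and Ciita (0.09) did not pass. These calls stand against a large background, since 11.7% of all genes passed as higher and 21.4% as lower. The probe set that H2-Oa shares with BC051537 was higher on the array numbered 2 in Brg1-/- only. H2-Eb1 and H2-DMb1 no longer passed when either pair of the Aire line was left out, and H2-DMb1 also without the Brg1-/- pair. What the number stands for is not given in the labels. Macrophage and monocyte markers followed it, with sums of 1279 to 1428 on mTEChi arrays numbered 1 and 1898 to 2190 on those numbered 2; their part in the class II values was not tested.

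The genes whose mTEChi values were most like the mean of H2-Aa and H2-Ab1 also followed the number. They were the glycolytic genes Tpi1 (r = 0.994) and Gapdh (0.993), then Tmem230 (0.992) and Auh (0.991), over 8 arrays. Tpi1 read 7.61 to 8.23 on arrays numbered 1 and 8.74 to 9.40 on those numbered 2. H2-Oa ranked 76 on this measure (r = 0.967) and H2-DMa had an r of -0.501.

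**Figure D5:**
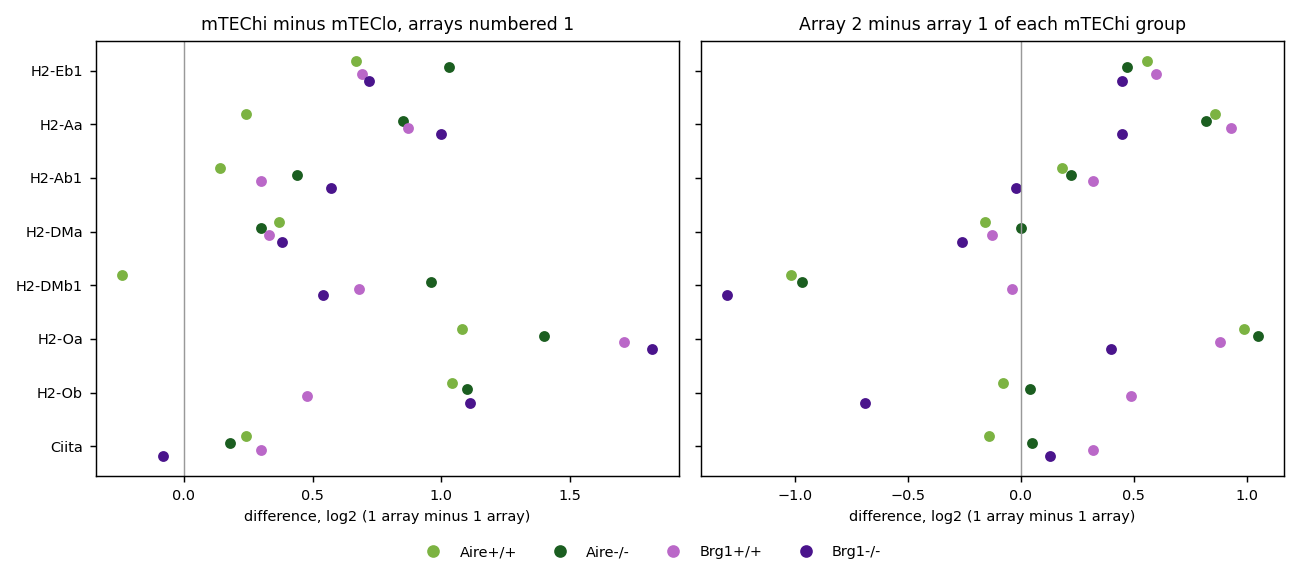
Log2 differences of the class II genes (horizontal axis) between mTEChi and mTEClo on arrays numbered 1, and between mTEChi arrays numbered 2 and 1, left and right; each point is the difference of 1 array minus 1 array in the genotype its colour shows. H2-Oa lies at 1.08 to 1.82 on the left and at 0.40 to 1.05 on the right, above 0 in all 4 genotypes of both.

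Beyond the members, 4 lists of pathway genes were read in the same fits. The regulators of class II transcription were measured for 19 of 20 genes, antigen processing and trafficking for 22 of 22, macroautophagy, which feeds cytosolic antigen to class II, for 21 of 21, and the other genes of the class II region for 23 of 25. In mTEChi, 0 genes of any list passed for loss of Aire or of Brg1, and their medians lay between -0.05 and 0.12 for Aire and between -0.22 and 0.04 for Brg1. Gabarapl1, of the autophagosome, had the lowest adjusted p for Aire loss: it read 4.53 and 4.58 in Aire-/- against 6.18 and 5.61 in Aire+/+ (-1.34, SE 0.29, adjusted p = 0.144 by limma). H2-Eb2 differed by 1.16 there (SE 0.44, adjusted p = 0.736 by limma). Of the factors that recruit Ciita, Rfxap differed by -0.48, Rfxank by 0.39 and Rfx5 by 0.32, and Rfx5 lay below the median gene on 12 of 12 arrays. For Brg1 loss, Hdac2, a deacetylase, differed by -0.72 and Psmb8, an immunoproteasome subunit, by 0.63, each with an adjusted p of 1 by limma.

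Between the wild-type fractions, 1 gene of these lists rose and 1 fell. H2-Eb2 rose in mTEChi by 2.70 (SE 0.381, adjusted p = 0.0137 by limma), from 6.23 to 6.94 in mTEClo to 8.46 to 9.97 in mTEChi of the wild types. Ifngr1, a chain of the interferon gamma receptor that acts upstream of Ciita, fell by 1.59 (SE 0.261, adjusted p = 0.0246 by limma), from 7.39 to 7.97 in mTEClo over all genotypes to 5.61 to 6.49 in mTEChi.

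On arrays numbered 1, the regulators Ifngr1, Rfxap and Kat2b fell in mTEChi, by 1.28, 1.22 and 0.63, out of 19, and none rose. Of the 22 processing genes, Ctsz (1.02), Ctss (1.04) and Cd82 (0.50) rose and Ctsl fell by 1.60. Ctss, the cathepsin that trims the invariant chain in many antigen-presenting cells, read 11.10 to 12.14 in mTEChi and 10.04 to 10.48 in mTEClo. Ctsl, the cathepsin known for that step in cortical thymic epithelium, read 8.11 to 9.26 in mTEChi and 9.82 to 10.66 in mTEClo. Neither pair of ranges overlaps. Of 21 macroautophagy genes Atg4a rose by 0.57, while Map1lc3b and Map1lc3a fell by 1.36 and 0.60. Of 23 region genes H2-Eb2 (2.94), Btnl1 (0.99) and H2-DMb2 (0.53) rose. These shares stand beside 4.92% of all genes higher and 4.49% lower in that fit.

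The array number moved the lists too. On mTEChi arrays numbered 2, 11 of 22 processing genes were higher and 1 lower, with a median of 0.48 against -0.11 for all genes, of which 11.7% were higher and 21.4% lower. Of 23 region genes 8 were higher and 1 lower, among them H2-DMb2 at 1.72 and Tap1, a peptide transporter of the class I pathway, at 1.07. Of 21 macroautophagy genes 6 were higher and 3 lower, with a median of -0.04. Of 19 regulators 1 was higher and 6 lower, with a median of -0.18 against -0.11 for all genes. Among the lower ones was Crebbp, a histone acetyltransferase, at -1.25.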

How the data were processed

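The deposited table gives 1 linear intensity for each of 33732 probe sets on each of 12 arrays. Tools in the submitters' processing notes are Transcriptome Analysis Console, Affymetrix Expression Console and RMA, without versions; a joint normalization of all arrays is not stated there. The log2 of the deposited intensities was used as it stood, without a pseudocount or renormalization, and has a rounding step of 0.01. No detection p was used, so the level of background is not known, and differences of dim genes are compressed by it. Levels are not compared between probe sets.

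By the platform annotation, 23491 probe sets had 1 symbol, 1811 several and 8430 none. The brightest probe set per gene was kept, which set 1337 aside and left 22154 genes, of which 21968 matched RefSeq (GRCm38.p6) by Entrez identifier. The tests used limma 3.58.1 in R 4.3.3: lmFit and eBayes on a single model with 8 group means, 4 residual and 3.46 prior degrees of freedom. Tests are two-sided, with Benjamini-Hochberg adjusted p under 0.05 over all genes. SE is limma's moderated standard error. Lone mTEClo arrays were assumed to vary like mTEChi arrays.

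The members and lists were chosen with earlier results of these data known. All members are named, then up to 4 genes per pathway list with the smallest p, any that passed, direct neighbours of H2-Ea, close copies of members, and the 4 genes with the highest Pearson r. Likeness leaves out predicted genes and receptor families, and the mean was meant to include Cd74, which is not analysed here. Rfx5, Btnl2 and the marker genes named singly were chosen after their values were seen. The fits by array number and of arrays numbered 1 were added after the data were seen. Alternatives were median centring, quantile normalization, a mean log2 of at least 5, the mean of all probe sets, a variance trend, mTEChi arrays only, 1 line only, a replicate block and leaving out each mTEChi array. The steps were tested on simulated data.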

Additional observations from a re-analysis of the deposited data

Results flagged for a closer look

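Ciita differed in opposite directions on the mTEChi arrays of the 2 lines, although neither difference passed limma's test: both Aire-/- mTEChi arrays lay above both Aire+/+ arrays, and both Brg1-/- arrays lay below both Brg1+/+ arrays. Of all genes, 1.95% showed both. In mTEClo, with 1 array each, Ciita read 6.69 in Aire-/- against 6.40 and 6.51 in Brg1-/- against 6.32, so both knockouts were the higher there. The Brg1 effect minus the Aire effect was -0.61 in mTEChi on the log2 scale (SE 0.336, adjusted p = 1 by limma), so the difference itself did not pass the test. Over the alternatives it lay between -0.77 and -0.45, with an adjusted p from 0.594 to 1.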

How the results depend on the processing

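The replicate number within each line as a block is the 1 choice that added calls among the members in the fits planned at the start. With the block, 1 member passed between mTEChi and mTEClo in wild types, H2-Oa (1.45, adjusted p = 0.00625 by limma), and 1 in Brg1-/-, again H2-Oa (1.70, adjusted p = 0.0253 by limma). It changed no other call of a member. Over all genes it moved the calls from 567 to 1534 in wild types, from 129 to 615 in Brg1-/-, from 104 to 505 in Aire-/-, from 176 to 531 for Aire loss in mTEChi and from 30 to 201 for the Brg1 effect minus the Aire effect. The differences between numbers correlated across genes between the mTEChi groups, with r from 0.552 to 0.657. The labels do not say that a number marks a shared animal or batch, and there are only 2 numbers, so this is a hint from the data and not a pairing by design.

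In the comparison of array numbers in mTEChi, 2 to 4 members passed when each pair was left out, and 2 without either pair of the Aire line. In mTEChi against mTEClo on arrays numbered 1, 1 to 3 passed, with 2 without the Aire+/+ pair and 1 without the Brg1-/- pair. Quantile normalization left 3, since H2-Aa no longer passed (0.65, adjusted p = 0.0557 by limma). Apart from H2-Oa under the block, 0 members passed in the planned comparisons under any alternative run, leaving out each mTEChi array included. Over single members, 0 values reversed a call, 13 lost one, 2 gained one and 1380 kept their side of the threshold. The number of arrays, 2 or 1 per group, limits the precision.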
